A study of Mus musculus with 6 samples.

Results

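Interneuron subclass markers are genes whose RNA is concentrated in particular kinds of inhibitory neuron of the cerebral cortex. The 10 genes described here were chosen by name from the symbol column of the deposited tables, and all 10 were listed in each of the 6 libraries, out of 19943 genes in the series. They are Pvalb, Sst, Vip, Reln, Calb2, Lhx6, Adarb2, Cort, Chodl and Nos1. RNA was taken from the medial prefrontal cortex of C57BL/6 mice. The isolated group holds 3 libraries (isolated 1 to 3) from mice that spent 3 weeks in social isolation after weaning, and the control group holds 3 libraries (control 1 to 3) whose housing the labels do not describe further. Both groups carry an age of 6 weeks in the sample labels, while the series' own design line says 7 weeks. The labels name no transgene, no sex and no pooling, and they leave unsaid whether each library stands for 1 animal. The p-values below therefore measure the spread between these libraries, which may be technical. The comparison asks whether the parvalbumin, somatostatin, Vip and Reln classes of interneuron differed in their marker RNA after isolation.

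Most cortical interneurons arise in the embryonic ganglionic eminences, transient swellings below the developing cortex. The medial eminence (MGE) gives the Pvalb and Sst classes and the caudal eminence (CGE) gives the Vip class and many Reln-expressing cells of the superficial layers. Pvalb cells fire rapidly and inhibit the cell bodies of pyramidal neurons, most Sst cells inhibit their dendrites, and Vip cells mainly inhibit other interneurons, above all Sst cells. Because the tissue was sequenced in bulk, fewer cells of a class and less RNA per cell cannot be told apart in any value below.

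The isolated libraries held 18390902 to 18606573 expected counts each and the control libraries 18226448 to 18544306. All 7 markers of cortical glutamatergic neurons (Camk2a the most abundant) were detected in every library, with their summed level between 5810 and 7110 CPM (read counts scaled to a common library size) in isolated and between 5960 and 7510 CPM in control libraries. Libraries stood apart within the groups in markers of striatal projection neurons, cells of a region that neighbours the cortex. The summed level of the 15 listed striatal markers was 572, 566 and 2530 CPM in isolated 1 to 3, against 1150, 3500 and 375 CPM in control 1 to 3. Isolated 3 and control 2 were therefore the striatal-high library of their group, and the differences of all 10 markers and of Lhx6 over Adarb2 are also given without both. Isl1 and Ankk1 were at 0 in some library, and Ppp1r1b, the most abundant striatal marker, was at 152, 159 and 622 CPM in isolated 1 to 3, against 301, 834 and 108 CPM in control 1 to 3. The 12 oligodendrocyte markers, with Mbp the most abundant, summed to 3810, 4110 and 7000 CPM in isolated 1 to 3, against 4890, 3490 and 2930 CPM in control 1 to 3. The 8 astrocyte markers, led in abundance by Slc1a2, summed to 4250 to 4410 CPM in isolated and 4560 to 4810 CPM in control libraries. Summed levels of the 8 microglial markers were 317 to 335 CPM in isolated and 335 to 363 CPM in control libraries. The 8 vascular markers, led in abundance by Rgs5, summed to 314 to 337 CPM in isolated and 344 to 375 CPM in control libraries. Summed levels of the 6 choroid plexus and ependymal markers, Foxj1 the most abundant, were 10.5 to 21.4 CPM in isolated and 7.97 to 11 CPM in control libraries. The 8 migrating and olfactory bulb neuron markers, led in abundance by Dcx, summed to 60.4 to 82.6 CPM in isolated and 62.3 to 89.6 CPM in control libraries. Summed levels of the 5 red blood cell markers, Hba-a1 the most abundant, were 154 to 325 CPM in isolated and 186 to 223 CPM in control libraries. The part of these cell types in the results was not tested.

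Of the 10 markers, 0 passed the threshold for a difference between isolated and control libraries with edgeR's quasi-likelihood test, at an adjusted p under 0.05 over 15169 genes. The share of all tested genes that passed was 0%, or 0 genes. DESeq2 called 1 gene, Fkbp5, which is none of the 10 (0.00659% of genes), and limma-voom called 0. At an unadjusted p under 0.05 edgeR had 0 of the 10 markers, against 3.53% of all tested genes (535). DESeq2 and limma-voom likewise had 0 of the 10, against 306 and 536 of the 15169 tested genes. The estimate was higher in isolated libraries for 3 markers (Sst, Calb2 and Lhx6) and lower for 7, with a median log2 difference of -0.10 against -0.002 over all tested genes. The isolated and control values did not overlap for 1 of the 10 markers, Adarb2, which was lower in isolated libraries. Among all tested genes 8.85% did not overlap, 4.12% higher and 4.73% lower in isolated libraries.

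The FPKM levels, which are scaled by gene length and library size, spanned a wide range and put the RNA of the 4 class markers in a fixed order. Over all 6 libraries Sst averaged 246 ± 15.4 FPKM, Pvalb 53.6 ± 11.8 FPKM, Vip 17.7 ± 3.93 FPKM and Reln 8.24 ± 1.47 FPKM (SD, n = 6). No library's value of one of Sst, Pvalb and Vip overlapped that of the next lower gene, so Sst stood above Pvalb, Pvalb above Vip and Vip above Reln in 6 of 6 libraries. The neighbours from Reln to Cort could not all be told apart. Reln was above Lhx6 (7.66 ± 0.519 FPKM) in 3 of 6 libraries, Lhx6 above Nos1 (6.07 ± 1.39 FPKM) in 5, Nos1 above Calb2 (5.87 ± 1.98 FPKM) in 4 and Calb2 above Adarb2 (5.23 ± 0.329 FPKM) in 4. Adarb2 was above Cort (4.49 ± 0.395 FPKM) in 6 of 6 libraries although their ranges overlapped. Chodl was last at 0.237 ± 0.0459 FPKM, below Cort in every library. CPM, used below to compare libraries, are not scaled by length and do not give this order: the gene models of Reln and Vip are 11702 and 1543 bases long.

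**Figure D1:**
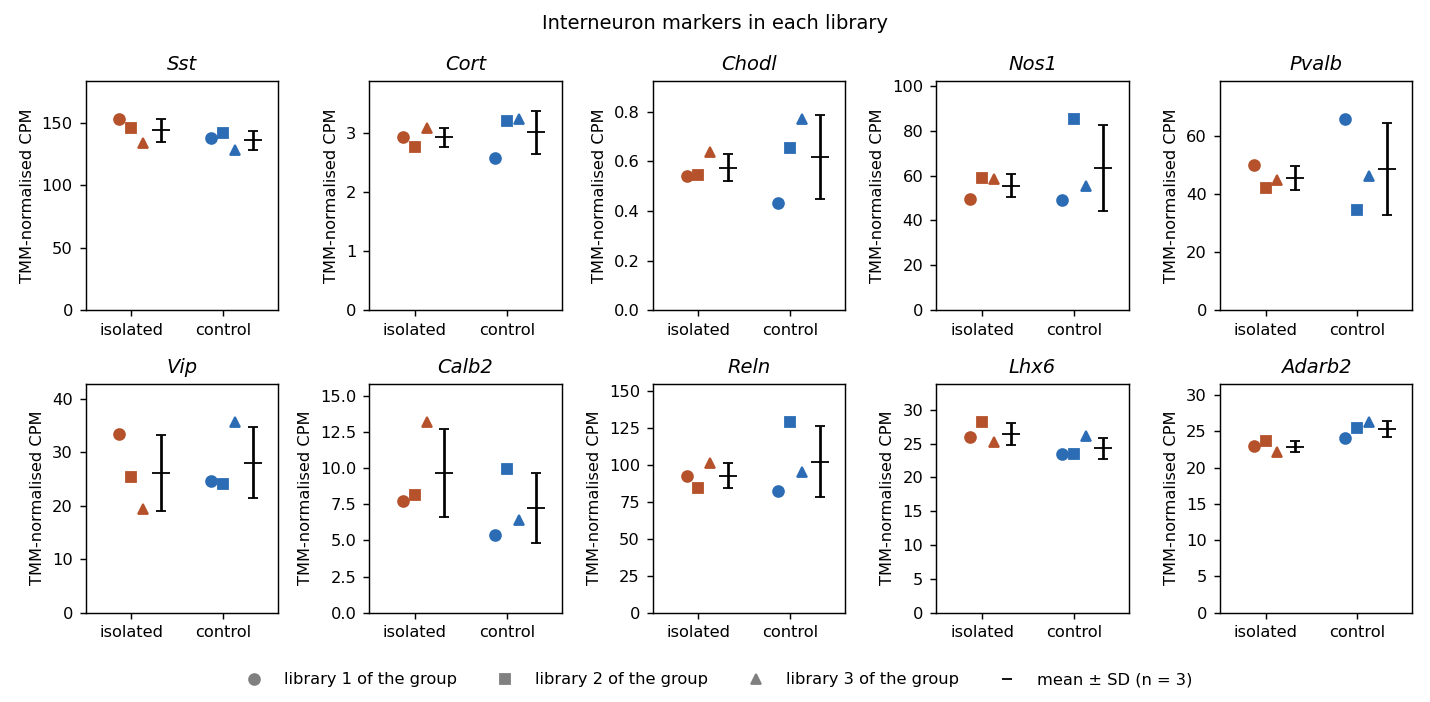
Level of each of the 10 interneuron markers in TMM-normalised CPM (vertical axes, from 0) in isolated and control libraries (horizontal axes), with 1 point per library and the mean ± SD of 3 libraries beside them. The groups overlap for every gene but Adarb2, whose isolated libraries (22.2 to 23.6 CPM) all lie below the control libraries (24.1 to 26.3 CPM).

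Sst encodes the peptide somatostatin, which inhibits its target cells through a family of receptors, and it defines the Sst class. Its level was 153, 146 and 134 CPM in isolated 1 to 3, against 138, 142 and 128 CPM in control 1 to 3. The values overlapped, with isolated 1 and isolated 2 above every control library and isolated 3 below control 1 and control 2. The mean was 144 ± 9.56 CPM in isolated and 136 ± 7.41 CPM in control libraries (SD, n = 3 each). The log2 difference was 0.09 (SE 0.07, 95% interval -0.07 to 0.25), and edgeR's adjusted p was 0.999. This interval corresponds to a fold between 0.95 and 1.19, one of the narrowest among the 10 markers. Without both striatal-high libraries the log2 difference was 0.17 with an unadjusted p of 0.038 and an edgeR adjusted p of 1, and it was 0.04 without control 3 or without isolated 1. Sst lies on chromosome 16 from 23889573 to 23891342 (GRCm38.p6, Entrez gene 20604).

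Cort encodes cortistatin, a peptide related to somatostatin that is made by part of the inhibitory neurons. It was measured at 2.93, 2.77 and 3.09 CPM in isolated 1 to 3, against 2.59, 3.21 and 3.24 CPM in control 1 to 3. All 3 isolated values lay inside the control range. Its log2 difference was -0.04 (SE 0.16, 95% interval -0.41 to 0.33, edgeR adjusted p = 0.999), and it was 0.01 without control 2 or without control 3, and -0.03 without both striatal-high libraries. These levels rest on 48 to 59 reads per library, and the variance of the counts within groups was 0.48 times their mean, where counting alone gives about 1. Cort lies on chromosome 4 from 149125034 to 149126763.

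The windows around the start of transcription of the 3 peptide genes are printed here, because Sst, Vip and Cort mark their classes by a peptide and the cyclic AMP response element is a textbook feature of the Sst promoter that links it to neuronal activity. The windows are those of RefSeq on build GRCm38.p6 and run from 250 bases before to 50 bases after the start, 5′ to 3′ on the gene's strand. Capitals mark the palindrome TGACGTCA in Sst and its shorter form TGACG, or CGTCA on the other strand, in Vip and Cort. Sst is at chr16:23890795-23891094 on the minus strand, Vip at chr10:5638968-5639267 on the plus strand and Cort at chr4:149126714-149127013 on the minus strand.
Sst: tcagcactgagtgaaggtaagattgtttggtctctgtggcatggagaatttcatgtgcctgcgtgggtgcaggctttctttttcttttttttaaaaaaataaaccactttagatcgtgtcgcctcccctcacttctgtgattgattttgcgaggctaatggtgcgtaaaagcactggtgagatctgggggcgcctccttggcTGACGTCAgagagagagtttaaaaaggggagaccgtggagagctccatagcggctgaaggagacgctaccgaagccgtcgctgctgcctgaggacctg
Vip: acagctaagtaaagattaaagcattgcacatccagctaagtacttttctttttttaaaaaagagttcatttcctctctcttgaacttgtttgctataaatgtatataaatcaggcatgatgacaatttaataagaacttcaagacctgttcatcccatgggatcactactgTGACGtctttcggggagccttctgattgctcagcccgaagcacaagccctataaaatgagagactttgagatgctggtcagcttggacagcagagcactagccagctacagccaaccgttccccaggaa
Cort: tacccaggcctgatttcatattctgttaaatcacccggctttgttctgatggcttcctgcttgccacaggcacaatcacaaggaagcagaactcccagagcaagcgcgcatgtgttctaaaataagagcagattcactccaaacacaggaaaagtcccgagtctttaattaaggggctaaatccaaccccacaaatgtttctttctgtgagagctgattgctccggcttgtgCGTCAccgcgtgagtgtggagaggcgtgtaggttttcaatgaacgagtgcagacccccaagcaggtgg
The palindrome of Sst spans bases 48 to 41 before the start. Of the 10 markers 9 had a window in the table, with 12 windows in all, and TGACGTCA was found in 1 of these windows, that of Sst, against 1.79% of 32851 windows of the same length. The shorter TGACG, contained in the palindrome, was searched on both strands. It was found in 4 of the 12 windows, from Sst, Vip, Cort and Nos1, against 20.8% of all windows. A match of letters is a description of the window and no measure of binding. None of Sst, Vip and Cort, with their different matches, passed the test between isolated and control libraries.

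Nos1 and Chodl together mark a sparse type of Sst cell with long axons. Nos1 encodes the neuronal nitric oxide synthase, which several other interneurons express more weakly, and Chodl encodes the membrane protein chondrolectin. Nos1 was measured at 49.5, 58.7 and 58.4 CPM in isolated 1 to 3, against 49.2, 85.1 and 55.5 CPM in control 1 to 3. Control 2 stood far above the other 5 libraries, which lay within 49.2 to 58.7 CPM in both groups. The log2 difference was -0.19 (SE 0.19, 95% interval -0.64 to 0.26, edgeR adjusted p = 0.999), and it turned to 0.09 without control 2. Without both striatal-high libraries it was 0.05.

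Chodl was counted in 10, 10 and 12 reads in isolated 1 to 3, against 8, 12 and 14 reads in control 1 to 3. The exact 95% Poisson interval was 3.45 to 15.8 reads for the lowest library, control 1, and 7.65 to 23.5 reads for the highest, control 3. Each interval held the count of the other library, so these counts did not tell the libraries apart. These intervals cover counting error only. The log2 difference of Chodl was -0.10 (95% interval -0.84 to 0.63, edgeR adjusted p = 0.999), which corresponds to a fold between 0.56 and 1.55, and it was 0.08 without control 3 and -0.14 without both striatal-high libraries.

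Pvalb encodes parvalbumin, a calcium-binding protein that defines the fast-spiking class. Its level was 50, 41.9 and 44.8 CPM in isolated 1 to 3, against 65.7, 34.3 and 46.2 CPM in control 1 to 3. The highest and the lowest of all 6 libraries, control 1 and control 2, were both controls, and the isolated libraries lay between them. The mean was 45.6 ± 4.11 CPM in isolated and 48.7 ± 15.8 CPM in control libraries (SD, n = 3 each), with a coefficient of variation of 9.01% in isolated and 32.5% in control libraries. Pvalb had a log2 difference of -0.10 (SE 0.21, 95% interval -0.59 to 0.39, edgeR adjusted p = 0.999), and 0.18 without control 1. Without both striatal-high libraries it was -0.28. With 630 to 1215 reads per library, the variance of the counts within groups was 53.7 times their mean, where counting alone gives about 1. The gene lies on chromosome 15 from 78191112 to 78206400 (Entrez gene 19293).

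Vip encodes vasoactive intestinal peptide, which raises cyclic AMP in cells that carry its receptors. It stood at 33.5, 25.3 and 19.4 CPM in isolated 1 to 3, against 24.6, 24 and 35.7 CPM in control 1 to 3. The groups overlapped throughout, and each held 1 library above 30 CPM. In each group the striatal-high library had the lowest Vip level, though control 2 differed little from control 1. The mean was 26.1 ± 7.11 CPM in isolated and 28.1 ± 6.57 CPM in control libraries (SD, n = 3 each). The log2 difference was -0.11 (SE 0.22, 95% interval -0.63 to 0.41, edgeR adjusted p = 0.999), and it was 0.10 without control 3, 0.07 without isolated 3 and -0.33 without isolated 1. Without both striatal-high libraries it was -0.03. Vip lies on chromosome 10 from 5639193 to 5647617 (Entrez gene 22353).

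Calb2 encodes calretinin, a calcium-binding protein found in many Vip cells and in part of the Sst cells. It was measured at 7.71, 8.16 and 13.2 CPM in isolated 1 to 3, against 5.35, 9.97 and 6.43 CPM in control 1 to 3. The striatal-high library was the highest in each group, and the other 2 isolated libraries lay above the other 2 controls. Of the 10 markers Calb2 had the largest estimate, a log2 difference of 0.42 (SE 0.28, 95% interval -0.24 to 1.07), and did not pass the test (edgeR adjusted p = 0.999). The estimate was 0.13 without isolated 3, 0.72 without control 2, 0.24 without control 1 and 0.43 without both striatal-high libraries, where the unadjusted p was 0.026 and edgeR's adjusted p was 1. In contrast to Calb2, Vip was at its lowest in isolated 3.

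Reln encodes reelin, a secreted matrix protein that guides neuronal migration in the embryo and in the adult cortex is made by interneurons, among them neurogliaform cells of layer 1. It stood at 92.3, 84.1 and 101 CPM in isolated 1 to 3, against 82.6, 129 and 95.3 CPM in control 1 to 3. Control 2 was the highest of all libraries and control 1 the lowest, with the isolated libraries between them. The mean was 92.5 ± 8.48 CPM in isolated and 102 ± 23.9 CPM in control libraries (SD, n = 3 each). Reln showed a log2 difference of -0.14 (SE 0.16, 95% interval -0.51 to 0.22, edgeR adjusted p = 0.999), which was 0.06 without control 2 and -0.01 without both striatal-high libraries. It lies on chromosome 5 from 21884454 to 22344705 (Entrez gene 19699).

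Lhx6 and Adarb2 divide interneurons by origin. Lhx6 encodes a transcription factor that MGE-derived cells need to mature and keep into adulthood, and Adarb2, a relative of the RNA-editing deaminases, is expressed in CGE-derived interneurons. Lhx6 was at 25.9, 28.2 and 25.2 CPM in isolated 1 to 3, against 23.4, 23.4 and 26.1 CPM in control 1 to 3. Only control 3 reached into the isolated range. The log2 difference was 0.12 (SE 0.08, 95% interval -0.06 to 0.30, edgeR adjusted p = 0.999), and 0.13 without both striatal-high libraries.

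Adarb2 was at 23, 23.6 and 22.2 CPM in isolated 1 to 3, against 24.1, 25.5 and 26.3 CPM in control 1 to 3. Every isolated library lay below every control library. The mean was 22.9 ± 0.725 CPM in isolated and 25.3 ± 1.15 CPM in control libraries (SD, n = 3 each). Adarb2 had the smallest unadjusted p of the 10 markers, 0.069, which ranked 802 among 15169 genes, with a log2 difference of -0.14 (SE 0.07, 95% interval -0.30 to 0.01, edgeR adjusted p = 0.999). Leaving out each library in turn kept its difference between -0.18 and -0.11, and it was -0.11 without both striatal-high libraries. With the groups apart, leaving out libraries could hardly turn this sign. The expected counts of Lhx6, Adarb2 and Nos1 were not whole numbers in any library (tolerance 0.001), so part of their reads was shared out with other genes, whereas the counts of the other 7 markers were whole.

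**Figure D2:**
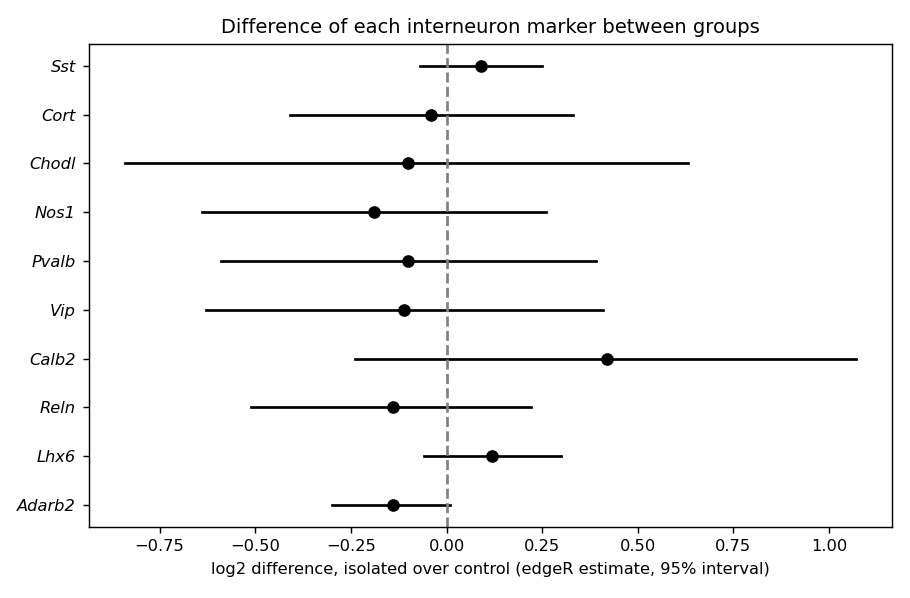
Log2 difference of isolated over control libraries (horizontal axis) for each of the 10 markers (vertical axis), as edgeR's estimate (point) with its 95% interval (line), over 3 libraries per group. Every interval includes 0. Adarb2 comes closest to leaving it out, from -0.30 to 0.01, and Chodl and Calb2 have the widest intervals.

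The balance between class markers was compared by the log2 ratio of 2 markers within a library, which library scaling does not touch. Such a ratio compares the RNA of 2 genes and is no count of cells of separate classes. For the 6 pairs of the 4 class markers and for Lhx6 over Adarb2, the mean ratio of isolated libraries was set against that of control libraries with an exact two-sided permutation test over libraries. With 3 against 3 libraries this test cannot give a p below 0.1, so none of these 7 comparisons could pass 0.05. The ratio of Pvalb to Sst averaged -1.66 ± 0.12 in isolated and -1.53 ± 0.49 in control libraries on the log2 scale (SD, n = 3 each), a difference of -0.13 (exact permutation p = 0.7, adjusted over 7 pairs 0.93). In linear terms there were 0.328, 0.287 and 0.335 Pvalb reads per Sst read in isolated 1 to 3, against 0.476, 0.242 and 0.362 in control 1 to 3. Control libraries thus held both the highest and the lowest ratio, and removing control 1 turned the difference to 0.09, while it was -0.44 without both striatal-high libraries.

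The ratio of Sst to Vip was 2.5 ± 0.30 in isolated and 2.30 ± 0.40 in control libraries (log2, SD, n = 3 each), a difference of 0.21 with an exact permutation p of 0.6. This difference was -0.02 without control 3. Sst over Reln differed by 0.21 as well (0.64 ± 0.21 in isolated and 0.43 ± 0.30 in control libraries, SD, n = 3 each, exact permutation p = 0.5). Pvalb over Vip and Pvalb over Reln both differed by 0.07 (exact permutation p = 0.8 each), and without the 2 striatal-high libraries these differences were -0.24 and -0.26. Pvalb over Vip was also negative without control 2 (-0.06), without control 3 (-0.13) or without isolated 3 (-0.12), as was Pvalb over Reln without control 2 (-0.33). Vip over Reln had a mean of -1.86 in both groups, with SDs of 0.47 in isolated and 0.51 in control libraries, and the difference ranged from -0.28 (without control 2) to 0.27 (without isolated 3) when 1 library was left out. For all 6 pairs of class markers the groups overlapped.

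For Lhx6 over Adarb2 they did not. There were 1.13, 1.19 and 1.14 Lhx6 reads per Adarb2 read in isolated 1 to 3, against 0.973, 0.917 and 0.992 in control 1 to 3. Lhx6 reads thus outnumbered Adarb2 reads in all 3 isolated libraries and fell short of them in all 3 control libraries. Reads are not scaled by gene length, so this crossing does not rank the genes. In FPKM Lhx6 (7.07 to 8.47) lay above Adarb2 (4.85 to 5.65) in isolated and control libraries alike. The log2 ratio averaged 0.20 ± 0.04 in isolated and -0.06 ± 0.06 in control libraries (SD, n = 3 each), a difference of 0.26. The exact permutation p was 0.1, the smallest this design can give, and 0.7 when adjusted over the 7 pairs. The difference stayed between 0.23 and 0.29 when each library was left out in turn, and was 0.24 without both striatal-high libraries. Because the groups were apart, leaving out libraries could not turn its sign. The share of Lhx6 among the reads of both genes was 54.4% in isolated 2, with an exact 95% binomial (Clopper-Pearson) interval of 51.2 to 57.6%, and 47.8% in control 2, with an interval of 44.5 to 51.2%. The shares were 53 and 53.2% in isolated 1 and 3, with lower bounds of 49.7 and 49.9%, against 49.3 and 49.8% in control 1 and 3, with upper bounds of 52.7 and 53%. The intervals cover counting error only.

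**Figure D3:**
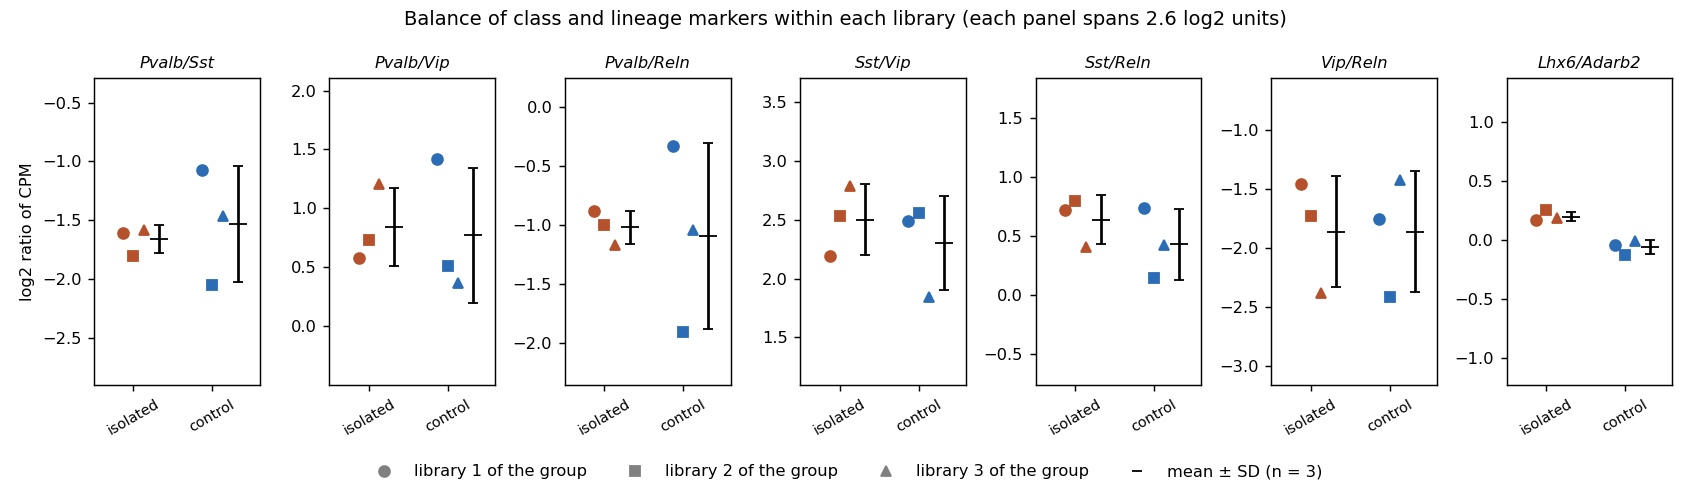
Log2 ratio of the CPM of 2 markers within each library (vertical axes, each spanning the same range) for 6 pairs of class markers and for Lhx6 over Adarb2, with isolated left of control libraries, 1 point per library and mean ± SD of 3 libraries. The groups overlap in the first 6 panels and are apart in the last, at 0.17 to 0.26 in isolated and -0.13 to -0.01 in control libraries.

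The markers differed widely in how much they varied between libraries of 1 group. Calb2 varied most, with a coefficient of variation of 31.3% in isolated and 33.3% in control libraries, followed in isolated libraries by Vip at 27.3%. Lhx6, Sst and Adarb2 were steady in both groups, with coefficients between 3.16 and 6.63%. For Adarb2, Cort and Chodl the variance of the counts within groups was no larger than their mean (0.432, 0.48 and 0.485 times), the range that counting alone gives, and for Lhx6 it was 1.36 times. Reln, Nos1 and Pvalb had 61.6, 61.2 and 53.7 times, Vip 30, Calb2 17.2 and Sst 8.83 times.

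Some of the markers stood at the end of their group in both striatal-high libraries, of which there was 1 per group. In isolated 3 and control 2, Reln and Calb2 were the highest and Vip and Lhx6 the lowest of their group. Lhx6 was at 23.4 CPM in control 2 and control 1 alike. How many of all tested genes stood at the end of their group in both libraries was not counted. Over all tested genes, the deviations of isolated 3 and control 2 from their group means correlated at 0.44. Relative to the mean of the other 2 libraries of the group, on the log2 CPM scale, Calb2 was higher by 0.72 in isolated 3 and by 0.75 in control 2. Reln was higher by 0.20 and 0.54, and Vip differed by -0.58 and -0.30. Pvalb (-0.03 and -0.68) and Nos1 (0.11 and 0.70) stood apart in control 2 but hardly in isolated 3. Sst differed by -0.16 in isolated 3 and by 0.10 in control 2. The striatal genes Drd2 and Isl1 themselves were at 50.2 and 3.67 CPM in isolated 3 and at 68.2 and 4.19 CPM in control 2. In control 3 they were at 0.605 and 0 CPM. Markers of striatal cholinergic interneurons summed to 5.59, 5.87 and 32.8 CPM in isolated 1 to 3, against 11, 43.8 and 3.13 CPM in control 1 to 3. The part of the striatal level in the spread of the interneuron markers was not tested. With it as a covariate the log2 differences of the 10 markers ranged from -0.16 (Nos1) to 0.43 (Calb2), and 0 passed with edgeR.

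**Figure D4:**
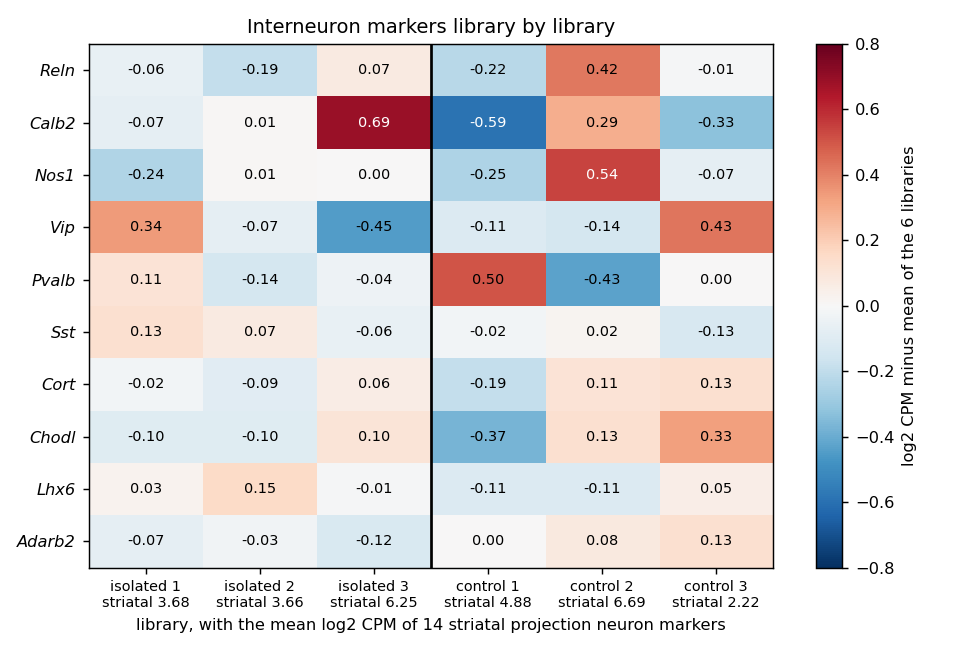
Deviation of each marker (rows) from its mean over the 6 libraries in log2 CPM (colour and printed value) in isolated 1 to 3 and control 1 to 3 (columns), with the mean log2 CPM of 14 tested striatal projection neuron markers under each library. Calb2 is highest in isolated 3 (0.69) and Nos1 in control 2 (0.54), the libraries with striatal means of 6.25 and 6.69, while Sst, Lhx6 and Adarb2 stay within 0.15 of their means.

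Companion genes of the classes were taken from 8 lists holding 67 distinct genes, of which 65 passed the filter on low counts. Lhx8 and Sstr5 did not pass it. The edgeR test called 0 of the 65, and 6 reached an unadjusted p below 0.05 (9.23%, where all tested genes had 3.53%). DESeq2's single call was none of them. Estimates were higher in isolated libraries for 30 of the 65 and lower for 35, with a median log2 difference of -0.01. The groups did not overlap for 5 of them, or 7.69%, against 8.85% of all tested genes.

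Among genes shared by all GABA-releasing neurons, 6 of 11 had higher and 5 lower estimates, with a median log2 difference of 0. Gad1, which makes most of the GABA in cell bodies, was at 347 ± 46.3 CPM in isolated and 356 ± 39.1 CPM in control libraries (SD, n = 3 each). Dlx1 and Dlx2, homeobox genes that direct interneuron development, had the smallest p-values of this list. Dlx1 was at 18.8, 19.3 and 29.6 CPM in isolated 1 to 3, against 19.9, 13.9 and 16.7 CPM in control 1 to 3, a log2 difference of 0.42 (SE 0.20, unadjusted p = 0.073, edgeR adjusted p = 0.999). Isolated 3 held the highest value and the groups overlapped. Dlx2 had a smaller estimate of 0.35 with the same adjusted p. Gad2 and Slc32a1, the second GABA-synthesising enzyme and the vesicular GABA transporter, were high in the striatal-high libraries, at 262 and 153 CPM in isolated 3 and 277 and 143 CPM in control 2, and between 175 and 190 CPM (Gad2) and 78.7 and 113 CPM (Slc32a1) elsewhere.

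Of the other MGE genes 4 of 6 tested had higher estimates (median 0.08), led by Nxph1, a neurexin ligand, at 29.7 ± 0.417 CPM in isolated and 27.2 ± 2.15 CPM in control libraries (SD, n = 3 each, log2 difference 0.13). Npas1 followed at 0.11. Of the other CGE genes 4 of 7 were higher (median 0.06). Nr2f2, which encodes the nuclear receptor COUP-TFII of CGE-derived cells, was at 8.47, 8.81 and 8.63 CPM in isolated 1 to 3, against 11.1, 16.2 and 10.8 CPM in control 1 to 3. The groups were apart, with control 2 the highest, and the log2 difference was -0.56 (SE 0.16, unadjusted p = 0.0094, edgeR adjusted p = 0.999). Vascular cells of the brain express Nr2f2 as well, and the summed level of 8 vascular markers was 314 to 337 CPM in isolated and 344 to 375 CPM in control libraries; their part in this difference was not tested. Sp8 (0.83) and Nr2f1 (-0.19) had estimates of opposite sign, and Sp8 was highest in isolated 3 at 4.74 CPM.

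For the Pvalb class, 2 of 8 companions were higher and 6 lower (median -0.07). Akr1c18, a steroid-metabolising enzyme, was at 1.25, 1.31 and 0.905 CPM in isolated 1 to 3, against 2.49, 1.47 and 1.87 CPM in control 1 to 3 (log2 difference -0.75, SE 0.27, edgeR adjusted p = 0.999), with the groups apart. Kcnc1, a potassium channel gene of fast-spiking cells, had its highest value in control 1, as Pvalb did: 289, 274 and 271 CPM in isolated 1 to 3, against 336, 271 and 283 CPM in control 1 to 3. Its log2 difference was -0.09, and that of Cemip was 0.19. Tac1, a tachykinin gene that striatal neurons also express, followed the striatal level, at 47.3 CPM in isolated 3 and 63.3 CPM in control 2 and between 7.2 and 19.6 CPM elsewhere.

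For the Sst class, 3 of 8 companions were higher and 5 lower (median -0.18). Rbp4, a retinol-binding protein gene, was at 11.5, 12.9 and 11.4 CPM in isolated 1 to 3, against 10.5, 7.79 and 9.56 CPM in control 1 to 3, with every isolated library above every control (log2 difference 0.36, SE 0.13, unadjusted p = 0.022, edgeR adjusted p = 0.999). Calb1, which encodes calbindin and is also expressed by upper-layer pyramidal cells, was at 88.9 ± 2.43 CPM in isolated and 105 ± 13.7 CPM in control libraries (SD, n = 3 each, log2 difference -0.24), with control 1 inside the isolated range. Npy, the neuropeptide Y gene of many Sst cells, was at 58.4 ± 6.17 CPM in isolated and 57.3 ± 8.28 CPM in control libraries (SD, n = 3 each).

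Sstr2, a somatostatin receptor gene that stood both in the Sst list and among the receptors, had the smallest p of the receptor list. Its level was 17.7, 18.4 and 18.3 CPM in isolated 1 to 3, against 21.1, 21.6 and 20.3 CPM in control 1 to 3. Every isolated library lay below every control, and the spread within groups was small. The log2 difference was -0.21 (SE 0.06, unadjusted p = 0.012), and it did not pass over all genes (edgeR adjusted p = 0.999). Of the 10 tested receptor and signalling genes for somatostatin, Vip and reelin, 3 had higher and 7 lower estimates (median -0.10). Vldlr, a reelin receptor, differed by -0.13 and Sstr1 by 0.13 in log2. Dab1, which relays the reelin signal inside the cell, was at 92 ± 7.75 CPM in isolated and 98 ± 1.97 CPM in control libraries (SD, n = 3 each).

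The companions of the Vip class were split evenly, with 4 of 8 higher (median -0.07). Crh, the corticotropin-releasing hormone gene, was at 3.75 ± 0.82 CPM in isolated and 4.58 ± 0.18 CPM in control libraries (SD, n = 3 each, log2 difference -0.29). Cnr1, the cannabinoid receptor gene of Cck-expressing interneurons, had a log2 difference of -0.28 with control 2 at 359 CPM and the other libraries between 188 and 228 CPM, and Sncg differed by 0.32. Of the genes listed with Reln for Lamp5 and neurogliaform cells, 4 of 8 were higher as well (median 0). Lsp1 was at 5.05, 6.42 and 6.39 CPM in isolated 1 to 3, against 4.65, 3.76 and 4.78 CPM in control 1 to 3, with the groups apart (log2 difference 0.44, SE 0.16, unadjusted p = 0.025, edgeR adjusted p = 0.999). Gabrd, a subunit of extrasynaptic GABA receptors, differed by -0.18 and Ndnf, a marker of layer 1 neurogliaform cells, by -0.30.

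**Figure D5:**
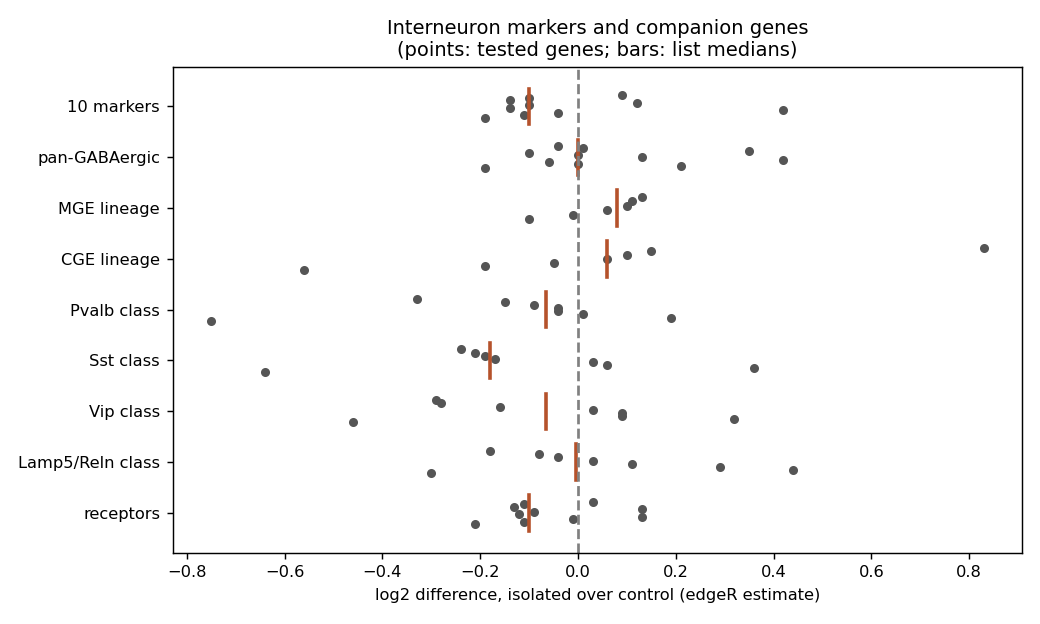
Log2 difference of isolated over control libraries (horizontal axis, edgeR's estimate from 3 libraries per group) for each tested gene (points) of the 10 markers and the 8 companion lists (vertical axis), with the median of each list as a bar. The medians lie between -0.18 (Sst class) and 0.08 (MGE lineage), and no gene passed the threshold.

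The genes whose log2 CPM followed that of a class marker most closely over the 6 libraries were picked by Pearson's r among 15168 genes and are given as a description, since with 6 libraries many genes reach high values by the search alone. For Pvalb they included Abcc8 (r = 0.994) and Dicer1 (0.992), and 79 genes had an r over 0.95. For Sst they were Tyrobp (0.989), Cnot8 (0.984) and Gm19782 (0.978), with 9 genes over 0.95. Vip was followed by Mrps18a (0.994), Lrfn5 (0.989) and Arhgap32 (0.987), with 61 genes over 0.95. Genes close to Reln included Otud6b (0.99) and Fam120a (0.988), and 63 genes had an r over 0.95.

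Overlap with other annotated genes was small for the 10 markers. In GENCODE M21 on GRCm38, exons of other genes covered 2.4% of the exon bases of Nos1, 2.16% of Lhx6 and 1.04% of Reln, and none of the other 7 markers. For Nos1 and Reln the overlapping gene is antisense, and since the sources used here do not state whether counting used strand, reads in those stretches could not be told apart.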

How the data were processed

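Per the labels' protocols, the 6 libraries were read at a length of 50 bases on BGISEQ-500. The tools HISAT, Bowtie2 and RSEM and the build mm10 come from a list per the submitters' processing notes that gives neither versions nor order. The authors deposited, per library, an expected count for each gene, an estimate of its reads that need not be whole and is not normalised. The deposited FPKM values scale these counts by gene length and library size, per the file headers. The 6 columns of a series-wide table match no label and were left aside.

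A gene absent from 1 library's table counted as 0 there, and the 1 entry per table without a symbol (at most 0.00095% of reads) was left out. Rounded expected counts entered edgeR 4.0.16 (R 4.3.3), where filterByExpr (minimum count 10, minimum total 15) kept 15169 of 19943 genes, all 10 markers among them, TMM factors lay between 0.991 and 1.012, and the quasi-likelihood test was followed by Benjamini-Hochberg adjustment across all 15169 genes, with a threshold of 0.05 and no covariates. Standard errors are the absolute log2 difference over the root of F. The procedure was first tested on simulated data. CPM are TMM-normalised. Exact permutation tests used SciPy 1.17.1. Alternatives used DESeq2 1.42.0 size factors and test, limma 3.58.1 (voom, and log2 FPKM with a pseudocount of 1 or 0.1 for genes with a mean FPKM of at least 0.1), no filter, a replicate block, a striatal covariate and left-out libraries. Pairs of libraries differed by a chi-square of 2.89 to 20.4 per gene with at least 20 reads, so none was counted as a repeat. Coordinates and symbols come from RefSeq on GRCm38.p6, which matched 19899 gene identifiers.

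The 10 markers, the lists and the tests were chosen with earlier results of these data known. All 10 markers are named, as are, except for a few genes not reported here, the 3 genes with the smallest p of each companion list, the 3 genes most like each class marker and the most abundant gene of each other cell type list. Gad1, Gad2, Slc32a1, Tac1, Npy, Dab1, Drd2, Isl1, Ankk1 and Fkbp5 were named after their values were seen.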

Additional observations from a re-analysis of the deposited data

How the results depend on the processing

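The number of genes called was 0 in all settings but DESeq2, which called 1, and no marker passed in any setting: the smallest adjusted p was 0.812, for Calb2 with the striatal level as a covariate. With edgeR, Adarb2 reached an unadjusted p of 0.038 without control 1 (adjusted 0.934), and Calb2 reached an unadjusted p of 0.027 without control 2. Deviations of same-numbered libraries from their group means correlated at 0.03, -0.27 and -0.49, and no library correlated best with its own number. These correlations cannot settle whether the numbers carry a pairing, because each group has 3 libraries that also differ in striatal level. With a replicate block 0 genes were called and 331 had an unadjusted p under 0.05 (535 without it), and Pvalb differed by -0.05 in place of -0.10. Without control 2 and isolated 3 the sign turned for Nos1 (0.05), Pvalb over Vip (-0.24), Pvalb over Reln (-0.26) and Vip over Reln (-0.01). The other 122 of 127 values under settings that left out no single library kept their direction and their side of the threshold. Leaving out 1 library at a time gave log2 differences from -0.29 to 0.18 for Pvalb, -0.33 to 0.10 for Vip, -0.28 to 0.06 for Reln, -0.14 to 0.01 for Cort, -0.30 to 0.08 for Chodl and -0.34 to 0.09 for Nos1. The signs of Sst (0.04 to 0.14), Calb2 (0.13 to 0.72), Lhx6 (0.07 to 0.18) and Adarb2 (-0.18 to -0.11) held. For Adarb2 this could hardly be otherwise, because its groups were apart. The ratios ranged from -0.40 to 0.09 (Pvalb over Sst), -0.13 to 0.39 (Pvalb over Vip), -0.33 to 0.46 (Pvalb over Reln), -0.02 to 0.36 (Sst over Vip), 0.06 to 0.36 (Sst over Reln), -0.28 to 0.27 (Vip over Reln) and 0.23 to 0.29 (Lhx6 over Adarb2). The cause of these shifts was not tested. For Chodl, Cort and Adarb2 the variance of the counts within groups was 0.485, 0.48 and 0.432 times their mean, estimated from 3 libraries per group. The part of counting depth in these results was not tested.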

Other observations

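Cdhr1, a cadherin gene known from projection neurons of the olfactory bulb and from photoreceptors, held 36, 43 and 51 reads in isolated 1 to 3, against 45, 325 and 46 reads in control 1 to 3, so control 2, the library with the highest Reln, stood alone. Tbx21 and Eomes are olfactory projection neuron genes. Tbx21 held 3, 4 and 3 reads in isolated 1 to 3, against 1, 5 and 2 in control 1 to 3. Eomes held 8, 3 and 26 reads in isolated 1 to 3, against 9, 9 and 5 in control 1 to 3. Neither passed the filter on low counts. Eomes held 9 reads in control 2, as in control 1, and its highest count was in isolated 3. Whether Tbx21 and Eomes follow Cdhr1 was not tested. These genes were picked after their values were seen, and no test was made.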
